A study of Mus musculus with 27 samples.

Results

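The clustered protocadherins were taken as the rows of the deposited count table whose GENCODE vM21 symbol begins with Pcdha, Pcdhac, Pcdhb, Pcdhga, Pcdhgb or Pcdhgc, ends in a number and belongs to a protein-coding gene. There were 24 such rows among 37332 genes: all 22 Pcdhb genes, 1 alpha row and 1 gamma row. GENCODE vM21 lists 57 genes with these symbols, 14 alpha, 22 beta and 21 gamma, between positions 36930184 and 37841873 on the plus strand of chromosome 18 (mm10). The 33 alpha and gamma genes without a row of their own had values only in the second deposited table, in TPM, transcript abundance scaled to transcript length and to the library's total, which held all 57.

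Clustered protocadherins are cell-surface adhesion proteins of neurons, and their extracellular domains bind the same isoform on an opposing membrane. Each alpha or gamma gene has its own promoter and a large variable first exon that is spliced to constant exons shared by the whole cluster, whereas a beta gene is essentially 1 large coding exon. In single neurons most of these promoters are chosen at random under the control of CTCF, cohesin and DNA methylation, while the C-type genes at the ends of the alpha and gamma clusters (Pcdhac1, Pcdhac2, Pcdhgc3, Pcdhgc4 and Pcdhgc5) are used more uniformly.

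The 3 clusters were not counted alike. The alpha row, listed under Pcdha11 (ENSMUSG00000007440), ran from 36930285 to 37187657, a span of 257373 bases that includes introns and the starts of 13 of the 14 alpha genes, Pcdha1 beginning 101 bases upstream of it, and the antisense row Gm10545 lies within it. The gamma row, listed under Pcdhgc4 (ENSMUSG00000023036), ran from 37674335 to 37841873 over 167539 bases and holds the starts of 18 of the 21 gamma genes, Pcdhga1 and Pcdhga2 beginning further upstream and Pcdhga3 28 bases upstream of it; the small nucleolar RNA row Gm24401 lies within it. These 2 rows were therefore read as counts of whole clusters and not of single genes. The 22 beta rows lay between 37264998 and 37521419 and did not overlap each other, the closest pair, Pcdhb21 and Pcdhb22, being 39 bases apart. In GENCODE the genes Pcdhb21 and Pcdhb22 do overlap, the 1 such pair of beta neighbours. Beta rows were 2340 to 7131 bases long, and 18 of the 22 beta genes have a single exon in GENCODE, the other 4 having 2 exons.

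Total RNA was sequenced from chromatin-associated, soluble nucleoplasmic and cytoplasmic fractions of 3 mouse cell types, with 3 biological replicates in each of the 9 groups and 27 libraries in all. mESC was the E14 embryonic stem cell line, kept on gelatin with the cytokine LIF, which holds such cells undifferentiated. mNPC was a neuronal progenitor line given the growth factors EGF and FGF daily, and mCtx was primary cortical neurons cultured for 5 days. No genotype or drug treatment is given as a difference between the groups. The cell types do differ in source and in the culture factors given, which cannot be told apart from cell type here. Each of the 2 lines stands for its cell type alone, and a primary culture can hold other cells beside neurons. RNA over 200 nt was depleted of ribosomal RNA and sequenced as 100 bp paired reads from stranded libraries without poly(A) selection, so that unspliced and non-polyadenylated transcripts were also read.

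Libraries held 11249862 to 19871198 counts. All 7 stem cell markers were at 1 CPM or more in mESC (CPM, a row's counts relative to the library's total, scaled by edgeR's TMM factors), with a summed 880 to 1153 CPM in chromatin, and Pou5f1, Zfp42, Dppa5a and Fgf4 were at 0 in mNPC and mCtx. All 9 neuronal markers were at 1 CPM or more in mCtx (5585 to 6568 CPM in chromatin) and 6 of 9 in mNPC (1795 to 2117 CPM), where Neurod6 was at 0 in chromatin and nucleoplasm. The 8 progenitor markers were all at 1 CPM or more in mNPC (1373 to 1572 CPM in chromatin) and also in mCtx (235 to 243 CPM). Oligodendrocyte-lineage markers reached 1700 to 2202 CPM in mNPC nucleoplasm against 27.7 to 30.2 in mCtx nucleoplasm, and astrocyte markers 171 to 286 against 35.6 to 37.7, with Mog at 0 in mNPC chromatin and nucleoplasm. Whether cells of these kinds contribute to the protocadherin values below was not tested, and in bulk RNA fewer cells of a type and less RNA per cell cannot be told apart. The mESC libraries numbered 1 stood apart from the other mESC libraries in all 3 fractions.

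The beta cluster was almost silent in mESC. Its 22 rows together held 43, 21 and 14 raw counts in the 3 chromatin libraries, 31, 16 and 13 in the nucleoplasm and 7, 0 and 6 in cytoplasm. No beta gene reached 1 CPM in any mESC fraction, and Pcdhb5, Pcdhb10 and Pcdhb21 were at 0 counts in all 9 mESC libraries. The summed beta level was 1.31 ± 0.71 CPM (SD, n = 3) in mESC chromatin, 230 ± 8.42 in mNPC chromatin and 131 ± 5.01 in mCtx chromatin. In nucleoplasm it stood at 1.22 ± 0.45 CPM for mESC, 618 ± 64.5 for mNPC and 399 ± 18.1 for mCtx. Against a floor of 3 counts per library, Pcdhb21 was at least 299-fold higher in mNPC nucleoplasm and at least 131-fold higher in mCtx nucleoplasm than in mESC.

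Pcdhb1, the first gene of the beta cluster, never exceeded 5 counts in a library and was the 1 row of the 24 that was not tested. The other 21 beta rows entered the test through their levels in mNPC and mCtx, so their higher level against mESC follows from that filter and is given as a description. In each of the 6 comparisons with mESC all 23 tested rows were called higher by edgeR's quasi-likelihood test, at a Benjamini-Hochberg adjusted p of 0.05 or less, as were 33.8%, 35.7% and 36.5% of all genes in mNPC chromatin, nucleoplasm and cytoplasm and 33%, 38.8% and 40.1% in mCtx. Genes called lower made up 42.7%, 41.5% and 39.4% in mNPC and 47.4%, 43.4% and 41.6% in mCtx, and calls in either direction 76.5%, 77.2% and 76% and then 80.3%, 82.2% and 81.6%. The alpha row did have counts in mESC, with 6.05, 4.28 and 2.68 CPM on chromatin, 1.96, 1.13 and 0.638 in the nucleoplasm and 0.377, 0.357 and 0.606 in cytoplasm. The gamma row was the most read of the 3 clusters in mESC, at 178 ± 7.03, 86.3 ± 4.47 and 37.6 ± 4.91 CPM.

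**Figure D1:**
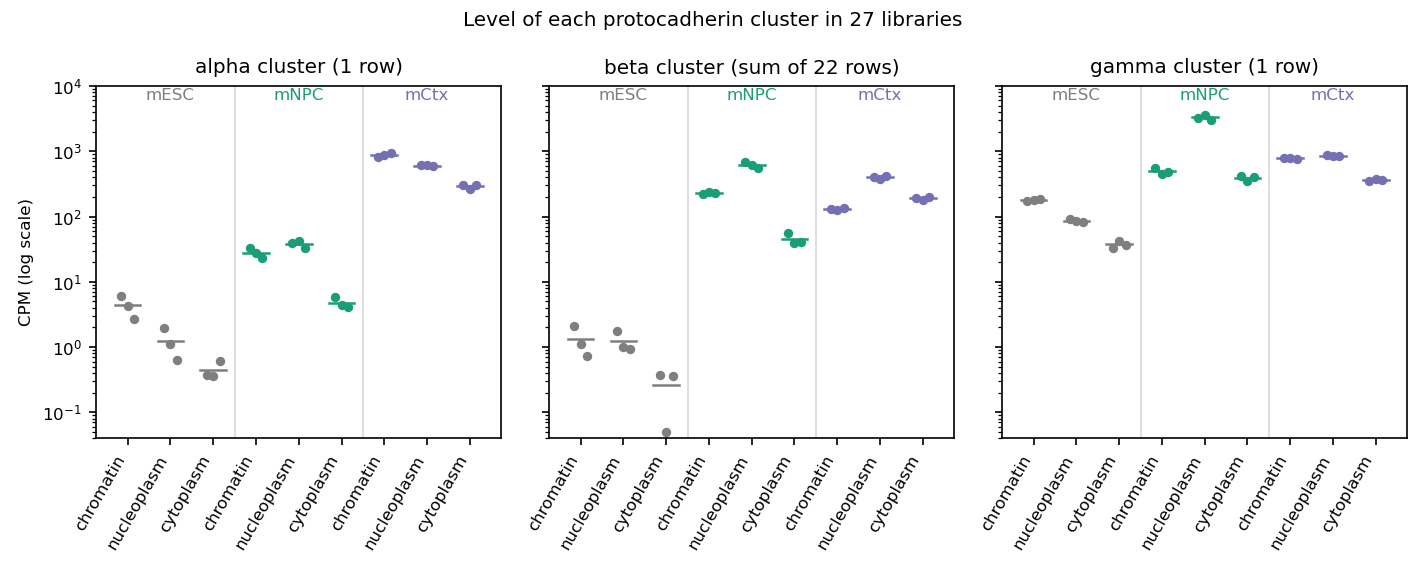
CPM on a log scale of the alpha row, the summed 22 beta rows and the gamma row in 27 libraries; each point is a library, each bar a group mean, and values under 0.05 are drawn at 0.05 (1 mESC cytoplasmic library with 0 beta counts). The alpha cluster rises stepwise from mESC through mNPC to mCtx in each fraction, the beta cluster is at 2.10 CPM or below in mESC and at 39.0 CPM or more elsewhere, and the gamma cluster is highest in mNPC nucleoplasm.

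Between progenitors and neurons the alpha cluster changed most. Its row was higher in mCtx than in mNPC in all 3 fractions, by 4.97 (SE 0.22) on the log2 scale in chromatin, 3.98 (SE 0.21) in nucleoplasm and 5.92 (SE 0.24) in cytoplasm, with edgeR adjusted p-values of 1.5e-16, 3.9e-15 and 2.8e-17. Chromatin libraries gave 33.1, 27.4 and 23.1 CPM in mNPC and 825, 874 and 928 CPM in mCtx. Cytoplasmic libraries gave 5.78, 4.48 and 4.10 CPM in mNPC and 300, 268 and 305 CPM in mCtx. No mNPC library overlapped a mCtx library in any fraction. The row stood at 39.3, 42.7 and 32.8 CPM in mNPC nucleoplasm and 614, 609 and 591 CPM in mCtx nucleoplasm.

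Single alpha genes could be followed in TPM, where they gave the same picture. How reads of the constant exons shared within the alpha or gamma cluster were divided among its genes is not given in the sources used here. Single-gene TPM and shares depend on that division. Summed alpha TPM was 1.02 ± 0.15, 1.39 ± 0.31 and 0.24 ± 0.07 in mNPC chromatin, nucleoplasm and cytoplasm, against 63.6 ± 3.21, 67.3 ± 8.98 and 17.6 ± 0.83 in mCtx. No alpha gene reached 1 TPM in mESC or mNPC, while 13, 12 and 6 of the 14 did in mCtx chromatin, nucleoplasm and cytoplasm. By limma on log2(TPM + 1), 14, 14 and 12 of 14 alpha genes were higher in mCtx than in mNPC in the 3 fractions and none lower, against 63.9%, 54.7% and 14.6% of all genes called higher. The median log2 difference of the alpha genes was 2.34, 2.35 and 0.98, and that of all genes was 0.65, 0.42 and 0.01.

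The makeup of the alpha RNA in mCtx differed between chromatin and cytoplasm. The C-type gene Pcdhac2 had 5.5, 5.14 and 4.92 TPM in the chromatin libraries, 21.3, 16.6 and 17.1 in the nucleoplasm and 5.88, 5.87 and 5.91 in cytoplasm. It made up 8.15% ± 0.18 of alpha TPM in chromatin, 27.2% ± 0.21 in nucleoplasm and 33.5% ± 1.51 in cytoplasm. The other C-type gene, Pcdhac1, had the opposite order, with 3.22, 3.58 and 3.96 TPM on chromatin, 1.16, 1.02 and 1.25 in the nucleoplasm and 0.12, 0.13 and 0.12 in cytoplasm. Its chromatin level was higher than its cytoplasmic level by 2.03 (SE 0.05) on the log2(TPM + 1) scale by limma, whereas that difference for Pcdhac2 was −0.16 (SE 0.09, adjusted p = 0.11) and was not called. Of 14 alpha genes in mCtx, 13 were higher in chromatin than in cytoplasm and none lower, with 65.2% of all genes called higher. Pcdha8, chosen after its values were seen, resembled Pcdhac1, at 4.76 ± 0.24 TPM in chromatin, 0.81 ± 0.02 in nucleoplasm and 0.10 ± 0.03 in cytoplasm.

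How evenly a cluster's genes are used can be given as an effective number, the inverse of the summed squared shares, which equals the number of genes when all are equal and 1 when a single gene supplies everything. For the 14 alpha genes in mCtx it was 11.2 ± 0.38 in chromatin, 7.95 ± 0.11 in nucleoplasm and 6.42 ± 0.35 in cytoplasm, and without Pcdhac2 it was 10.2, 10.2 and 10.1. With Pcdhac2 left out, the nucleoplasmic and cytoplasmic means lay within 1 SD of the chromatin mean.

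**Figure D2:**
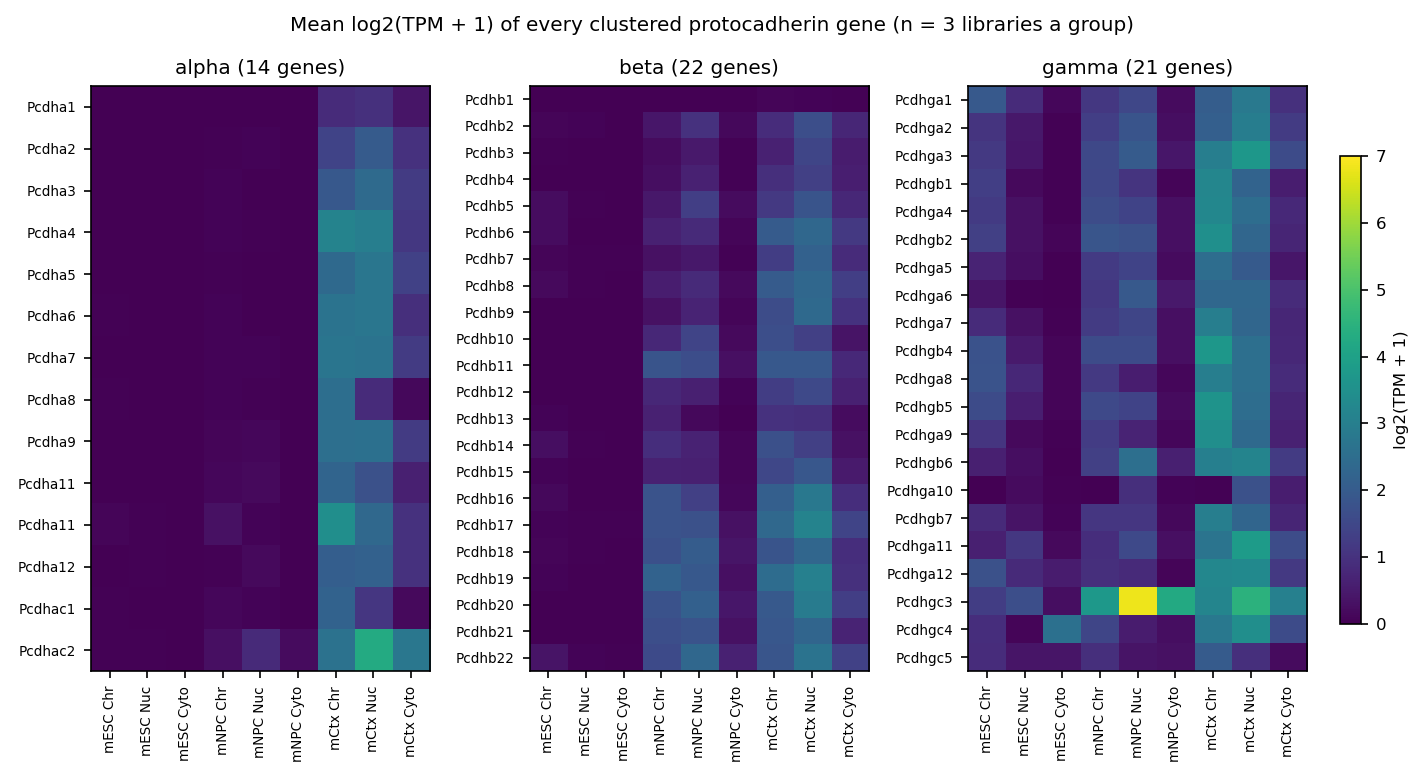
Mean log2(TPM + 1) over 3 libraries of each of the 57 genes, in genome order within each cluster, for the 9 groups; GENCODE gives 2 alpha genes the symbol Pcdha11. Alpha genes are dark outside mCtx, beta genes are dark in mESC and brighten toward the end of the cluster, and Pcdhgc3 in mNPC nucleoplasm is the brightest cell.

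Beta genes did not follow the alpha cluster. In cytoplasm all 21 tested beta rows were higher in mCtx than in mNPC, against 32.6% of all genes (66% called in either direction), with a median log2 difference of 2.66 and a range from 0.80 (Pcdhb10) to 5.05 (Pcdhb7), where the median of all genes was 0. In chromatin 3 of the 21 beta rows were higher and 9 lower, against 30.2% and 39.2% of all genes (69.4% in all). In nucleoplasm again 3 were higher and 9 lower, against 36.9% and 34.9% (71.8% in all). The share of lower beta rows was thus near the background in chromatin and somewhat above it in nucleoplasm. The share of higher beta rows was below the background in both fractions. The medians there were −0.44 and −0.33, and those of all genes −0.18 and 0. The summed beta level in mCtx was 0.568 times that of mNPC in chromatin, 0.646 times in nucleoplasm and 4.26 times in cytoplasm. No library of one cell type overlapped the other in these sums, although with 3 libraries against 3 the exact two-sided permutation test cannot go below p = 0.1, the value all 3 comparisons gave.

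Pcdhb7 had the largest cytoplasmic difference of the beta genes. Its cytoplasmic libraries gave 0.315, 0.108 and 0.360 CPM in mNPC (6, 2 and 5 raw counts) and 9.38, 7.64 and 9 CPM in mCtx. The log2 difference was 5.05 (SE 0.41, edgeR adjusted p = 8.5e-11), its size resting on those few mNPC counts. In chromatin it had 1.60, 1.97 and 1.31 CPM in mNPC and 3.69, 3.08 and 3.85 in mCtx, so it was higher in mCtx there too, by 1.10 (SE 0.34), a call lost with library totals alone (0.50). Pcdhb9 behaved alike, higher in mCtx by 1.59 (SE 0.25) in chromatin, 0.94 (SE 0.21) in nucleoplasm and 3.77 (SE 0.27) in cytoplasm. Pcdhb13 was higher in cytoplasm by 3.94 (SE 0.53) and in nucleoplasm by 1.37 (SE 0.35), while its chromatin difference of −0.55 (SE 0.34) was not called.

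Pcdhb19, the most read beta row, was instead lower in mCtx chromatin. Chromatin libraries held 48.8, 54.7 and 50.4 CPM in mNPC and 21.8, 22.7 and 26.3 CPM in mCtx, a log2 difference of −1.12 (SE 0.17, edgeR adjusted p = 2.9e-06). Its cytoplasmic libraries held 7.41, 5.23 and 3.82 CPM in mNPC and 20.6, 17.9 and 24.9 CPM in mCtx, a difference of 1.92 (SE 0.19). The 2 cell types did not overlap in either fraction and stood in opposite order. Nucleoplasmic libraries held 108, 84.2 and 90.7 CPM in mNPC and 70.3, 65.1 and 73.6 in mCtx, a difference of −0.43 (SE 0.17, edgeR adjusted p = 0.023) whose call was lost with library totals alone (−0.37) and without mNPC nucleoplasm replicate 1 (−0.33) or mCtx nucleoplasm replicate 1 (−0.44) or 2 (−0.39). Pcdhb18 was lower in both nuclear fractions and higher in cytoplasm, with −1.34 (SE 0.16) in chromatin, −1.50 (SE 0.15) in nucleoplasm and 1.22 (SE 0.16) in cytoplasm. Pcdhb11 was lower in mCtx chromatin by 1.28 on the log2 scale (−1.28, SE 0.19) and Pcdhb20 had −1.13 (SE 0.18). Pcdhb10 gave the largest nuclear decrease, from 21.6, 25.2 and 22.8 CPM in mNPC nucleoplasm to 5.80, 4.64 and 6.04 in mCtx nucleoplasm, −2.08 (SE 0.21).

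The nuclear direction of the beta genes depended on which deposited table was read. In TPM the summed beta level was 25.8 ± 1.07 in mNPC chromatin and 47.4 ± 5.18 in mCtx chromatin, and 31.3 ± 9.37 and 76.1 ± 8.47 in nucleoplasm, so mCtx was higher. By limma on log2(TPM + 1), 15 beta genes were higher and none lower in chromatin, and 19 and none in nucleoplasm, while in cytoplasm 19 were higher and none lower. Of all genes, 63.9%, 54.7% and 14.6% were called higher by that test, so the chromatin share of 15 in 21 was near the background. The median of all genes moved with the table too, from −0.18 in counts to 0.65 in TPM for chromatin and from 0 to 0.42 for nucleoplasm. The cause was not tested. Within the counts the chromatin median also moved with scaling, to −0.78 with library totals alone and 0 with DESeq2. Over all 24 rows the split in chromatin was 5 higher and 9 lower in the edgeR test, 8 and 8 with DESeq2 or its size factors, 2 and 12 with library totals alone, 17 and 0 with TPM, and 12 and 7 with rescaled TPM. In nucleoplasm it was 4 and 10 in the edgeR test, 21 and 0 with TPM, and 10 and 8 with rescaled TPM. In cytoplasm 22 rows were higher and none lower in the edgeR test, and none of the settings named here called any row lower.

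**Figure D3:**
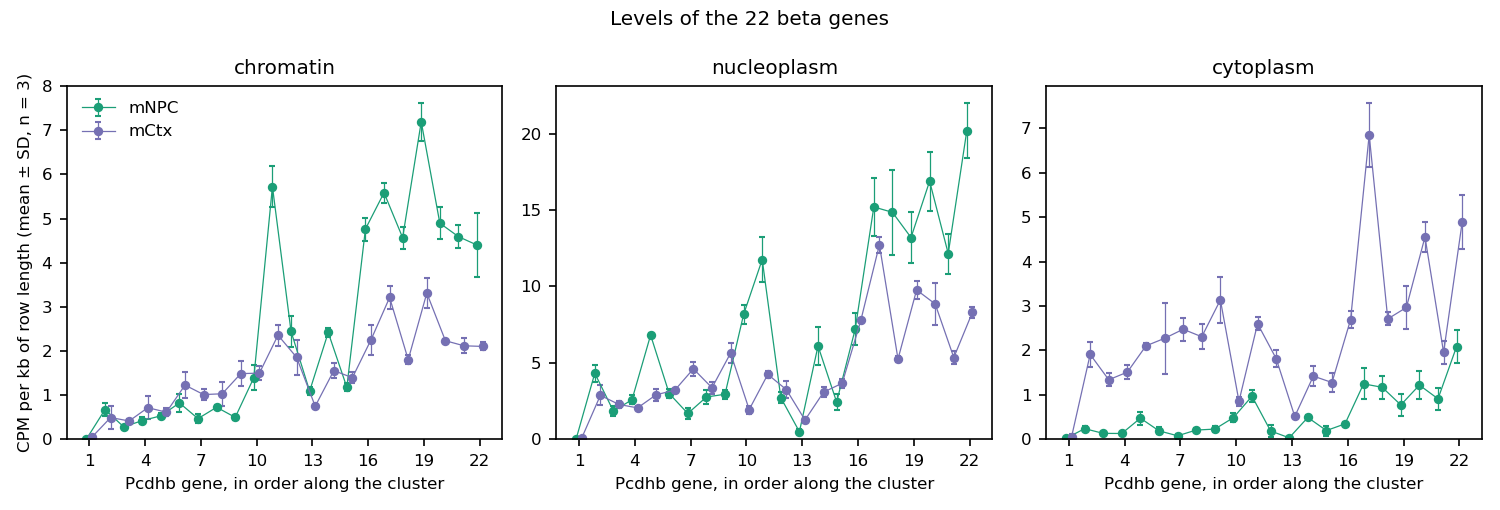
CPM per kb of row length of the 22 beta genes in order along the cluster, in chromatin, nucleoplasm and cytoplasm of mNPC and mCtx; points are means and bars are SD over 3 libraries. Levels are higher in the second part of the cluster in both cell types, mNPC lies above mCtx there in chromatin, and mCtx lies above mNPC for the tested genes in cytoplasm.

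Beta genes late in the cluster were more highly expressed per length than early ones. Across the 22 genes, Spearman's rho between position in the cluster and CPM per kb was 0.84, 0.71 and 0.72 for mNPC chromatin, nucleoplasm and cytoplasm and 0.84, 0.74 and 0.52 for mCtx; the genes share libraries and a locus, so these are descriptions across genes. Mean level over the 7 genes from Pcdhb16 to Pcdhb22 was 5.14 ± 0.20 CPM per kb in mNPC chromatin, and over the 14 genes from Pcdhb2 to Pcdhb15 it was 1.33 ± 0.09. The ratio of these means was 3.87 ± 0.29 in mNPC chromatin, 3.46 ± 0.24 in nucleoplasm and 3.89 ± 0.32 in cytoplasm, and 2.09 ± 0.12, 2.62 ± 0.02 and 2.09 ± 0.18 in mCtx. The groups of 7 and 14 were drawn after the levels were seen. In TPM, which also takes account of length, rho was 0.83, 0.67 and 0.66 for mNPC and 0.67, 0.59 and 0.39 for mCtx.

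The order of beta genes by level was shared between the 2 cell types most closely on chromatin. Spearman's rho of CPM per kb across the 22 genes between mNPC and mCtx was 0.95 in chromatin, 0.69 in nucleoplasm and 0.68 in cytoplasm. Within mNPC it was 0.97 between nucleoplasm and cytoplasm and 0.78 between chromatin and cytoplasm. Within mCtx the same values were 0.90 and 0.65. In TPM, rho between the 2 cell types was 0.80 in chromatin, 0.69 in nucleoplasm and 0.64 in cytoplasm, so chromatin stood out less. The effective number of the 22 beta genes was 9.34 ± 0.12, 11.6 ± 0.43 and 10.9 ± 0.42 in mNPC chromatin, nucleoplasm and cytoplasm and 12.8 ± 0.74, 12.5 ± 0.05 and 15.1 ± 0.65 in mCtx. Beta reads were spread over more genes in mCtx than in mNPC in each fraction, and the means ± SD did not overlap.

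Fraction by fraction, beta RNA in mNPC was concentrated in the nucleus. The summed beta level in mNPC was 221, 238 and 231 CPM in the chromatin libraries, 686, 609 and 558 in the nucleoplasm and 55.3, 39.0 and 40.4 in cytoplasm. In mCtx it was 131, 126 and 136 CPM on chromatin, 404, 379 and 414 in the nucleoplasm and 192, 180 and 202 in cytoplasm. Nucleoplasm was the highest fraction in both cell types, but the order of the other 2 was reversed: chromatin was 5.12 times cytoplasm in mNPC and 0.683 times in mCtx. CPM is a share of each fraction's own reads, so these ratios compare shares and not molecules per cell.

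By gene, 20 of 21 tested beta rows were higher in chromatin than in cytoplasm in mNPC and none lower, against 37% and 32.5% of all genes (69.5% in all), with a median of 2.10 on the log2 scale. In mCtx 1 was higher and 12 were lower, against 35.6% and 37.6% of all genes (73.3% in all), with a median of −0.90; the all-gene medians were 0.06 and 0. Nucleoplasm exceeded cytoplasm for all 21 in mNPC (3.27 to 4.49, median 3.81, 22.6% of all genes higher and 50.1% called in all) and for 17 of 21 in mCtx (median 0.90, 29.6% of all genes higher, 28.6% lower and 58.2% called in all). In mESC, where the counts were few, 6 rows were higher in chromatin than in cytoplasm and 5 in nucleoplasm than in cytoplasm, against 44.6% and 29.9% of all genes (77.5% and 63.1% called in either direction). Without the mESC libraries numbered 1, the calls over all 24 rows in these 2 mESC comparisons went from 8 to 4 and from 7 to 2.

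Pcdhb16 shows the shift between cell types. In mNPC it had 23.7, 26.4 and 25.2 CPM on chromatin, 43.5, 37.8 and 32.6 in the nucleoplasm and 2.05, 1.56 and 1.80 in cytoplasm. In mCtx it had 11.4, 10.3 and 13.8 CPM on chromatin, 40.5, 42.0 and 40.3 in the nucleoplasm and 15.3, 13.3 and 14 in cytoplasm. The nucleoplasmic libraries of the 2 cell types overlapped, chromatin and cytoplasm did not, and chromatin exceeded cytoplasm by 3.79 (SE 0.19) in mNPC and by −0.26 (SE 0.16, not called) in mCtx. Pcdhb13 had the largest chromatin excess in mNPC, 5.03 (SE 0.50), with 3.74, 4.38 and 3.94 CPM on chromatin and 0.210, 0.108 and 0 in cytoplasm. Those cytoplasmic values rest on 4, 2 and 0 raw counts, so the size of this excess is uncertain. Pcdhb2 had the largest deficit in mCtx, −1.94 (SE 0.36), followed by Pcdhb5 at −1.78 (SE 0.22) and Pcdhb3 at −1.70 (SE 0.32).

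The difference between cell types was itself tested as an interaction, the log2 chromatin-to-cytoplasm ratio in mCtx minus that in mNPC. It was negative and called for 20 of 21 beta rows and positive for none, against 21.8% and 12.2% of all genes (34% in all), with a median of −2.82 where that of all genes was −0.20. The largest values were −4.49 (SE 0.64) for Pcdhb13, −4.05 (SE 0.25) for Pcdhb16 and −3.95 (SE 0.55) for Pcdhb7, and the most read rows gave −3.05 (SE 0.26) for Pcdhb19, −3.25 (SE 0.24) for Pcdhb17 and −2.56 (SE 0.23) for Pcdhb18. The values for Pcdhb13 and Pcdhb7 rest on few mNPC cytoplasmic counts (4, 2 and 0, and 6, 2 and 5). Pcdhb10 was the 1 beta row not called, at −0.69 (SE 0.33, edgeR adjusted p = 0.11). The other 376 tested single-exon protein-coding genes had a median of −0.91 in the same interaction, with 121 lower and 4 higher. Between mNPC and mESC edgeR called 0 of 21 beta rows in the corresponding interaction (lowest adjusted p = 0.054, 2 rows at an unadjusted p under 0.05), where 16.7% of all genes were called higher, 23.5% lower and 40.2% in all, and DESeq2 called 1 of the 24 rows, as edgeR did. By limma on log2(TPM + 1), 13 of 21 beta genes were higher and none lower in that interaction, against 9.57% and 29.3% of all genes. With rescaled TPM, on the same scale, 21 of the 24 rows were higher and 1 lower. In mESC that scale held the beta difference of chromatin over cytoplasm near 0 (median 0.06), so the beta calls cannot show a change in ratio. Without the added 1, the log2 ratio of summed beta TPM in chromatin over cytoplasm was 3.66 in mESC and 3.03 in mNPC.

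This shift was smaller and less uniform in TPM. In mCtx the summed beta TPM was 47.4 ± 5.18 in chromatin and 17.4 ± 0.38 in cytoplasm, so chromatin was higher, and 19 of 21 beta genes were called higher there by limma on log2(TPM + 1), as were 65.2% of all genes. On that scale the interaction was called higher for 4 beta genes and lower for 4, with a median of −0.04, against 53% and 2.85% of all genes and an all-gene median of 0.59. The scale understates differences of low genes, and the median beta gene was at 0.10 TPM in mNPC cytoplasm. Without the added 1, the log2 ratio of summed beta TPM in chromatin over cytoplasm was 3.03 in mNPC and 1.45 in mCtx, so it was lower in mCtx as in counts. With rescaled TPM, 1 of the 24 rows was higher and 14 were lower in the interaction, and for chromatin against cytoplasm in mCtx the split of the 24 rows was 3 higher and 12 lower in the edgeR test, 6 and 10 with DESeq2, 21 and 0 with TPM and 17 and 0 with rescaled TPM.

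**Figure D4:**
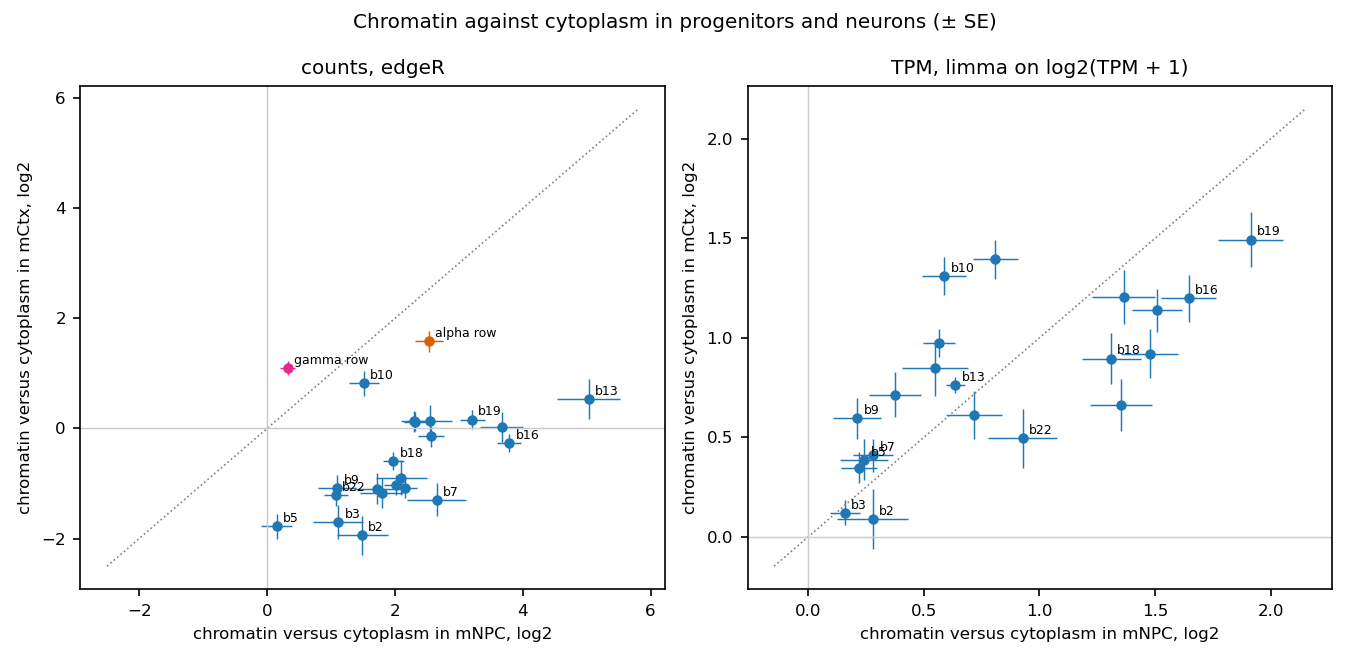
Log2 difference of chromatin over cytoplasm in mNPC (x axis) and mCtx (y axis) from counts (left, 23 tested rows, edgeR) and for the beta genes from TPM (right, limma on log2(TPM + 1)); bars are SE and the dotted line marks equal differences. In counts every beta row lies below the line and the gamma row above it, while in TPM beta genes lie on both sides of it.

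The alpha and gamma rows, whose spans include long introns, were higher in chromatin than in cytoplasm in neurons. In mCtx the alpha row was higher in chromatin than in cytoplasm by 1.59 (SE 0.19) and the gamma row by 1.10 (SE 0.12). In mNPC these differences were 2.53 (SE 0.22) and 0.33 (SE 0.12, edgeR adjusted p = 0.016, lost without mNPC chromatin replicate 1 or cytoplasm replicate 2). The interaction was thus −0.94 (SE 0.29, edgeR adjusted p = 0.012) for the alpha row and 0.77 (SE 0.17, edgeR adjusted p = 0.00069) for the gamma row, of opposite sign. The alpha call was lost with median-ratio size factors (−0.71) and the gamma call with library totals alone (0.03). On the log2(TPM + 1) scale the alpha result had the opposite sign, with 13 of 14 alpha genes called higher in that interaction and none lower. Of the 21 gamma genes, 14 were higher and 1 lower. In the same TPM interaction 53% of all genes were higher and 2.85% lower, with a median of 0.59, so the gamma count was near the background. That scale understates differences of low genes, and no alpha gene reached 1 TPM in mNPC. Without the added 1, the log2 ratio of summed alpha TPM in chromatin over cytoplasm was 2.07 in mNPC and 1.85 in mCtx, so the sums did not turn the sign.

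The gamma row had its highest level in mNPC nucleoplasm. Nucleoplasmic libraries of the gamma row gave 91.1, 85.7 and 82.3 CPM for mESC, 3286, 3604 and 2986 for mNPC and 870, 836 and 860 for mCtx. Chromatin libraries gave 171, 178 and 185 CPM for mESC, 547, 454 and 473 for mNPC and 790, 779 and 769 for mCtx. The row was lower in mCtx than in mNPC nucleoplasm by 1.94 on the log2 scale (−1.94, SE 0.12, edgeR adjusted p = 9.4e-14) and higher in mCtx chromatin by 0.66 (SE 0.12), a call lost with library totals alone (0.06). In cytoplasm the libraries overlapped, with 422, 345 and 409 CPM in mNPC and 350, 377 and 365 in mCtx, and the difference of −0.11 (SE 0.12, edgeR adjusted p = 0.44) was not called. Against mESC the row was higher in mNPC by 1.46, 5.25 and 3.38 in chromatin, nucleoplasm and cytoplasm.

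In TPM, 1 gene held most of the gamma level in mNPC nucleoplasm. Pcdhgc3, a C-type gene also expressed outside neurons, had 133, 90.5 and 113 TPM in mNPC nucleoplasm, 11.8, 11.2 and 13.9 in mNPC chromatin and 21.6, 16.9 and 16 in mNPC cytoplasm. In mCtx it had 8.64, 8.53 and 7.11 TPM on chromatin, 25.1, 20.5 and 19.2 in the nucleoplasm and 7.03, 8.22 and 6.71 in cytoplasm. It supplied 30.2% ± 3.31 of gamma TPM in mNPC chromatin, 77.1% ± 2.30 in nucleoplasm and 82.6% ± 2.10 in cytoplasm, but 15.9% ± 0.82 and 28.1% ± 1.47 in mCtx nucleoplasm and cytoplasm. By limma on log2(TPM + 1) it was lower in mCtx than in mNPC by 0.55, 2.31 and 1.19 (−0.55, −2.31 and −1.19, SE 0.21 each) in chromatin, nucleoplasm and cytoplasm.

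The other gamma genes went the opposite way. Of 21 gamma genes, 19, 20 and 18 were higher in mCtx than in mNPC in chromatin, nucleoplasm and cytoplasm, with Pcdhgc3 the 1 lower gene in each, where 63.9%, 54.7% and 14.6% of all genes were higher and 5.6%, 4.71% and 9.33% lower. Gamma A genes together had 14.9 ± 1.72 TPM in mNPC chromatin and 68.6 ± 4.63 in mCtx chromatin, and gamma B genes 11 ± 1 and 55.8 ± 3.13. In cytoplasm gamma A genes had 2.15 ± 0.70 and 12.1 ± 1.05 TPM and gamma B genes 1.30 ± 0.39 and 4.48 ± 0.18, with no overlap between cell types in their means ± SD. In mCtx, gamma B genes therefore held nearly as much TPM as gamma A genes on chromatin but much less in cytoplasm.

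The effective number of gamma genes in mNPC was 8.47 ± 1.23 in chromatin, 1.67 ± 0.10 in nucleoplasm and 1.46 ± 0.07 in cytoplasm, and without Pcdhgc3 it was 17.4, 14.2 and 14.2. In mCtx it was 17.5 ± 0.18, 14 ± 0.41 and 8.79 ± 0.51, and without Pcdhgc3 16.5, 15.4 and 14.8. Across the 21 gamma genes in mCtx, Spearman's rho of TPM was 0.96 between nucleoplasm and cytoplasm, 0.16 between chromatin and nucleoplasm and 0.00 between chromatin and cytoplasm, as a description. Pcdhga10, chosen after its values were seen, was listed at 0 in 7 of the 9 chromatin libraries and had 2.61, 2.14 and 2.31 TPM in mCtx nucleoplasm.

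Pcdhgc4, a C-type gene required for survival of many neurons, stood out in stem cell cytoplasm. Its TPM in mESC was 3.88, 6 and 5.24 in cytoplasm against 0.46, 0.91 and 1.30 in chromatin and 0.03, 0.09 and 0.07 in nucleoplasm, and it held 73.9% ± 3.70 of gamma TPM in mESC cytoplasm. It was higher in cytoplasm than in chromatin there by 1.68 on the log2(TPM + 1) scale (−1.68 for chromatin over cytoplasm, SE 0.15), whereas in mCtx chromatin exceeded cytoplasm by 1.2 (SE 0.15). In mCtx it had 5.42, 6.54 and 5.78 TPM on chromatin, 11.7, 8.52 and 9.62 in the nucleoplasm and 1.74, 2.16 and 2.13 in cytoplasm. In mNPC it was at 1.74 ± 0.24, 0.44 ± 0.12 and 0.19 ± 0.11 TPM. The gamma row of the count table carries the same name but counts the whole cluster, so its values are not those of this gene. In mESC nucleoplasm the highest gamma gene was instead Pcdhgc3, at 2.20 TPM. Single-gene values of this kind depend on how reads of the shared exons were divided.

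Pcdhgc5, the last gamma gene, had its highest TPM on mCtx chromatin and was also present on mNPC and mESC chromatin. It had 2.51, 3.34 and 3.18 TPM in mCtx chromatin, 0.87, 0.96 and 0.96 in the nucleoplasm and 0.16, 0.13 and 0.15 in cytoplasm. In mNPC it had 1.06, 0.81 and 0.93 TPM in chromatin and in mESC 0.70, 0.84 and 1.02. It was higher in mCtx than in mNPC by 1.05 (SE 0.12) in chromatin and 0.58 (SE 0.12) in nucleoplasm on the log2(TPM + 1) scale by limma, while its cytoplasmic difference of −0.12 (SE 0.12) was not called. The median over the 21 gamma genes was 1.65 in chromatin and 1.11 in nucleoplasm, and over all genes 0.65 and 0.42. An excess of chromatin over cytoplasm in mCtx was shared by most of the cluster. It was called for 19 of the 21 gamma genes, with 1 lower, against 65.2% and 8.48% of all genes. Among the 5 C-type genes, Pcdhac2 was thus highest in mCtx nucleoplasm, Pcdhgc3 in mNPC nucleoplasm and both Pcdhac1 and Pcdhgc5 on mCtx chromatin. Pcdhgc4 was highest in mCtx nucleoplasm and also high on mCtx chromatin and in mESC cytoplasm.

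**Figure D5:**
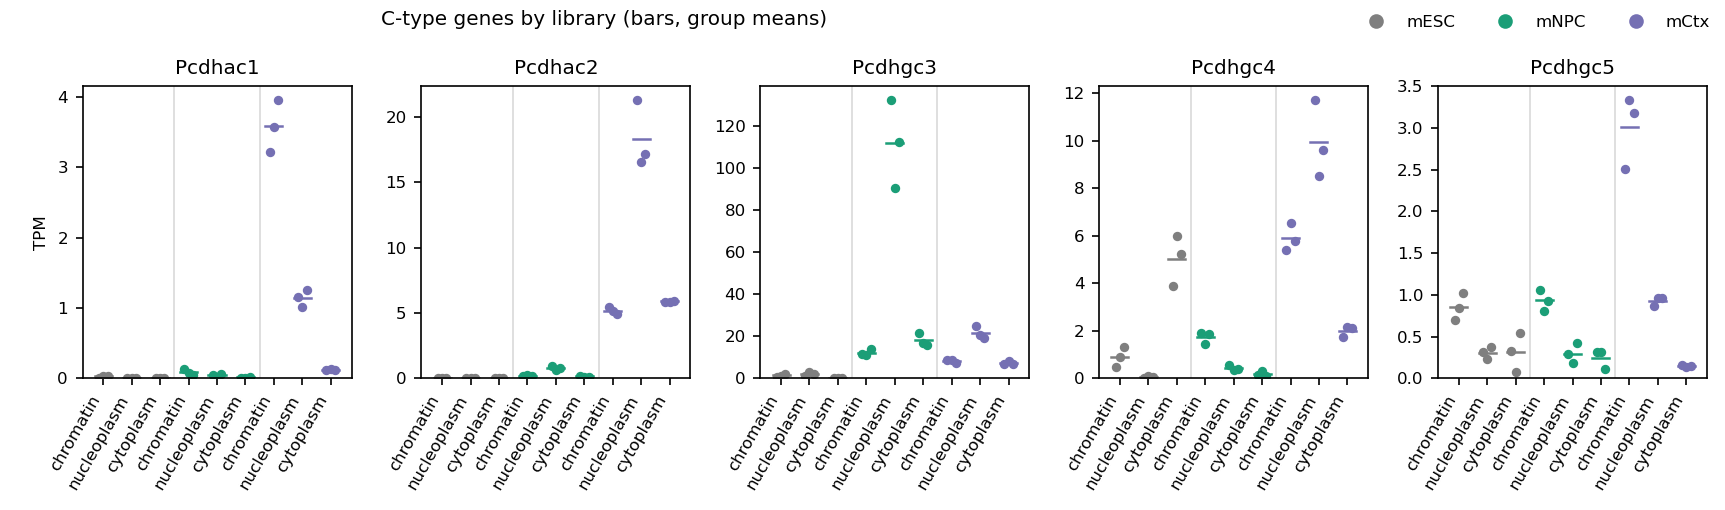
TPM of the 5 C-type genes in each library, by fraction and cell type, each panel on its own axis; points are libraries and bars are group means. Pcdhgc3 reaches 90.5 to 133 TPM in mNPC nucleoplasm, Pcdhac1 and Pcdhac2 are near 0 outside mCtx, and Pcdhgc4 is the C-type gene above 3 TPM in mESC cytoplasm.

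Related genes were read beside the clusters, from lists compiled for these cells. Of 12 non-clustered protocadherins, single genes elsewhere in the genome that encode similar adhesion proteins, 11 were tested. Against mESC, 8, 11 and 9 were higher in mNPC chromatin, nucleoplasm and cytoplasm and none lower, against the 33.8%, 35.7% and 36.5% of all genes higher there. Between mCtx and mNPC, 8 were higher and 3 lower in chromatin and in nucleoplasm, and in cytoplasm 10 were higher and none lower with a median of 2.57, where 30.2%, 36.9% and 32.6% of all genes were higher and 39.2%, 34.9% and 33.4% lower in the 3 fractions. Pcdh20 had 0.02 CPM in mNPC cytoplasm and 15.7 in mCtx, Pcdh8 had 0.52 and 62.0, and Pcdh1 had 3.46 and 54.0. Their chromatin-to-cytoplasm ratio in mCtx against mNPC was lower for 9 and higher for 1, against 21.8% and 12.2% of all genes, with a median of −1.74 where that of the beta rows was −2.82.

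Factors known to organise or silence the locus gave no single direction. The shares of all genes just given for mCtx against mNPC are the background here too. Of 23 such genes, 6 were higher and 10 lower in mCtx than in mNPC chromatin, 12 and 4 in the nucleoplasm and 4 and 12 in the cytoplasm, of which the chromatin counts were near the background. In cytoplasm the largest differences were −1.60 (SE 0.22) for Uhrf1, which recruits DNA methylation after replication, −1.32 (SE 0.13) for Smc1a and −1.19 (SE 0.15) for Stag2, both cohesin subunits. Dnmt3b, the DNA methyltransferase associated with these promoters, had 101, 146 and 297 CPM in mESC chromatin, nucleoplasm and cytoplasm, 12.1, 3.88 and 4.17 in mNPC and 14.4, 6.69 and 4.24 in mCtx; it was named after its values were seen. Of 17 genes for partners of clustered protocadherin proteins, 13 were higher and 1 lower in mCtx than in mNPC chromatin, and 9 and 5 in nucleoplasm and in cytoplasm. Chromatin had 30.2% of all genes higher and 39.2% lower, nucleoplasm 36.9% and 34.9%, and cytoplasm 32.6% and 33.4%. In cytoplasm the largest differences were in Ret, the receptor kinase, at 0.08 CPM in mNPC and 4.75 in mCtx, Ptk2b, a kinase bound by clustered protocadherins, at 4.14 (SE 0.22) on the log2 scale, and Nlgn1, a synaptic adhesion protein, at 2.16 (SE 0.17).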

How the data were processed

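The 27 libraries were grouped by cell type and fraction from their titles, 3 per group. The deposited table of read counts per gene was used for the main tests. The submitters' processing notes name STAR, featureCounts, kallisto and mm10; their versions and roles, the annotation, strand setting, multimapping and overlap rules are not given in the sources used here. Every row's length equals its genomic span, so each row spans introns as well as exons; whether intronic reads were counted is not given in the sources used here. The deposited chromatin columns hold whole-number counts like the rest, not estimated or expected counts. The second deposited table holds TPM for 53379 genes, with no depth recoverable. Of the 37332 count rows, 35533 matched a GENCODE vM21 gene, which supplied symbols and biotypes; no per-sample column was left unmapped.

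Counts were fitted over all 9 groups in edgeR 4.0.16 (R 4.3.3) with TMM scaling and default low-count filtering, which kept 18249 genes and 18 residual degrees of freedom; p-values were Benjamini-Hochberg adjusted over all genes tested, with a threshold of 0.05, in 17 contrasts. CPM uses the same scaling. TPM was tested with limma 3.58.1 on log2(TPM + 1) over 35052 genes at 0.1 TPM or more in at least 3 libraries, 56 of the 57 protocadherin genes among them; fold changes on that scale understate those of low genes. Cluster sums were compared by exact permutation over libraries. Effective numbers were planned on counts, but TPM was used for alpha and gamma because each has a single count row. Alternatives were DESeq2 1.42.0, its median-ratio size factors, library totals alone, only the groups compared, a test of every gene with a count, a replicate block, each library left out, and TPM; TPM with alpha and gamma genes summed, the same rescaled by the median ratio over 6008 genes, and leaving out the mESC libraries numbered 1 were chosen after seeing the data. The scripts were tested on simulated data. Figures used Python 3.11.15, pandas 2.3.3, scipy 1.17.1 and matplotlib 3.10.9.

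Genes, lists and tests were chosen with earlier results of these data known. Named genes are the C-type genes, the 3 most read per cluster, and up to 3 per direction and comparison with the largest called change and at least 1 CPM. Replicates are called biological in the labels, with no culture or animal named, so p-values measure the spread between these samples. No 2 libraries were duplicates: replicate pairs differed beyond counting noise, with chi-square per degree of freedom of 3.12 to 72.04. Libraries were taken as paired by replicate number where every correlation of deviations was over 0.1. This held only in mESC, between chromatin and cytoplasm (0.278 to 0.541) and nucleoplasm and cytoplasm (0.316 to 0.660). In mNPC the values were weaker, at 0.081 to 0.189 and −0.010 to 0.138. No sequence is printed.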

Additional observations from a re-analysis of the deposited data

Results flagged for a closer look

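The effect of fraction differed between cell types by a test of the difference itself, the interaction of edgeR's quasi-likelihood fit, for the results that follow; groups of 3 libraries were too small to look for single outlying samples. Comparing mNPC with mESC, the chromatin-to-cytoplasm ratio was lower for 1 of 24 rows, the gamma row listed under Pcdhgc4, at −1.92 (SE 0.17), against 23.5% of all genes lower and 16.7% higher. Comparing mCtx with mNPC, it was lower for 21 rows and higher for 1, against 21.8% and 12.2% of all genes. Limma on log2(TPM + 1), a scale that understates differences of low genes, called 4 lower and 5 higher. Among the rows named by rule, the log2 difference of the ratio was −4.49 for Pcdhb13, −4.05 for Pcdhb16, −3.95 for Pcdhb7, −3.25 for Pcdhb17, −3.05 for Pcdhb19, −2.56 for Pcdhb18 and −0.94 for the alpha row listed under Pcdha11. The gamma row was the 1 higher row, at 0.77. The TPM of the single gene Pcdhgc4 gave 2.89 and −0.0082 for the same 2 differences, and the 2 tables measure different things under that name.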

How the results depend on the processing

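Every called difference of a named row kept its direction in edgeR without a low-count filter, with the replicate block, with library totals, with median-ratio size factors and in DESeq2. With only the compared groups, 110 of these 114 differences could be estimated, and all 110 kept their direction. The calls in mCtx against mNPC chromatin still went from 5 higher and 9 lower to 8 and 8 with DESeq2 or its size factors. Each reversal below came from the TPM table, and its cause was not tested. By limma on log2(TPM + 1), differences in mCtx against mNPC were, in chromatin, 0.28 for Pcdhb19, 0.10 for Pcdhb18, 0.56 for Pcdhb17, 0.13 for Pcdhb11 and 0.19 for Pcdhb20, and in nucleoplasm 1.17 for Pcdhb19 (0.039 with rescaled TPM), 0.31 for Pcdhb18 and 2.92 for Pcdhgc4. Chromatin over cytoplasm in mCtx was 0.90 for Pcdhb18 (rescaled 0.57), 0.92 for Pcdhb17 (0.53), 0.09 for Pcdhb2, 0.39 for Pcdhb5 (0.13) and 0.12 for Pcdhb3. The interaction of mCtx with mNPC was 0.13 for Pcdhb13, 0.13 for Pcdhb7, −0.0082 for Pcdhgc4 and 1.55 for Pcdha11 (1.09 for summed alpha genes, 0.26 rescaled). Without the added 1, the log2 ratio of summed alpha TPM in chromatin over cytoplasm was 2.07 in mNPC and 1.85 in mCtx. For summed beta TPM it was 3.03 and 1.45. Pcdhgc4 also gave −2.34 in mNPC and −0.99 in mCtx against mESC cytoplasm, −1.68 and −2.49 for mESC chromatin and nucleoplasm over cytoplasm, and 2.89 in the interaction of mNPC with mESC, where the gene and the whole-cluster row differ. The all-gene median moved by over 0.1 with TPM, from −0.18 to 0.68 in chromatin and from 0 to 0.77 in nucleoplasm of mCtx against mNPC over the genes of the edgeR test, and from −0.20 to 0.60 in the interaction. Scaling moved it within the counts too. With library totals it was −0.78 in chromatin of mCtx against mNPC and −0.93 in the interaction, and with DESeq2 or its size factors 0 in both. For chromatin over cytoplasm in mCtx it went from 0 to −0.56 with library totals and 0.15 with DESeq2 or its size factors.

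The log2 ratio of summed beta levels in mCtx against mNPC chromatin, −0.82, was 0.88 in TPM, −0.71 per kb, −1.42 with library totals and −0.56 with median-ratio factors; in nucleoplasm −0.63 became 1.28 in TPM and in cytoplasm 2.09 became 2.45. Chromatin over cytoplasm went from 2.36 to 3.03 in mNPC with TPM, and in mCtx from −0.55 to 1.45 with TPM, −1.12 with library totals and −0.27 with median-ratio factors. Effective numbers of beta genes in chromatin, nucleoplasm and cytoplasm became 12.3, 13.3 and 11.6 in mNPC and 17.1, 16.2 and 16.2 in mCtx with TPM, and per kb 12.3 and 13.1 in mNPC and 16.6 and 15.4 in mCtx chromatin and nucleoplasm.

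Calls against mESC rest on few counts. In mNPC against mESC cytoplasm 23 calls became 14 with only the compared groups, 5 with TPM, 5 with summed TPM and 11 with rescaled TPM. Chromatin over cytoplasm in mESC had 8 calls, 2 with only the compared groups, 3 with TPM, 3 with summed TPM and 4 with rescaled TPM, and nucleoplasm over cytoplasm 7 calls, 1 under each of these 4. Without the mESC libraries numbered 1 they had 4 and 2. Leaving out 1 library gave 4 to 9 calls in both (lowest without mESC chromatin replicate 1 for the former, and without mESC nucleoplasm replicate 1 or cytoplasm replicate 2 for the latter). The interaction of mNPC with mESC had 1 call, 2 with library totals, 14 with TPM, 15 with summed TPM, 22 with rescaled TPM and 1 to 3 with a library left out (2 without mESC chromatin replicate 2, 3 without replicate 3, 2 without mNPC cytoplasm replicate 2); that of mCtx with mNPC had 22 calls, 9 with TPM and 10 with summed TPM.

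With the replicate number as a block, the pairing moved no count of calls by over 1.5 times: chromatin over cytoplasm and nucleoplasm over cytoplasm in mESC kept 8 and 7 calls, mCtx against mNPC went from 14 to 16 in nucleoplasm, and nucleoplasm over cytoplasm in mCtx from 19 to 23.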

Other observations

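Genes next to the clusters showed no common direction. Rell2, which lies beyond the gamma cluster, had 2.16, 0.76 and 1.16 CPM in mNPC chromatin, nucleoplasm and cytoplasm and 12.4, 30.2 and 70.4 in mCtx, a log2 difference of 5.92 (SE 0.26) in cytoplasm by edgeR. Diaph1, an actin-nucleating formin beside the gamma cluster, was higher in mCtx than in mNPC by 1.08 (SE 0.10) in chromatin and 1.13 (SE 0.10) in cytoplasm. Hdac3, a histone deacetylase, was lower in mCtx cytoplasm (−0.70, SE 0.13), as was Hars2, a mitochondrial tRNA synthetase on the alpha side (−0.91, SE 0.12), while Zmat2 and Hars did not pass the test there.

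Taf7, a subunit of the general transcription factor TFIID, lies between the beta and gamma clusters and was highest in mESC. It had 20.3, 66.2 and 150 CPM in mESC chromatin, nucleoplasm and cytoplasm, 9.41, 9.10 and 18.7 in mNPC and 4.72, 12.2 and 21.7 in mCtx. Its level in mNPC was lower than in mESC in all 3 fractions, with a log2 difference of −3.00 (SE 0.20) in cytoplasm. Gm10545, the antisense row within the alpha span, was at 0 in mESC and mNPC and at 1.2, 0.64 and 0.39 CPM in mCtx chromatin, nucleoplasm and cytoplasm. The alpha row had 876, 605 and 291 CPM in the same groups. Gm24401, the small nucleolar RNA row within the gamma span, had its highest level in mCtx chromatin, at 3.86 CPM.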
